A study of Mus musculus with 14 samples.

Results

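The galectin family in this series was followed through 6 genes, Lgals1, Lgals3, Lgals4, Lgals8, Lgals9 and Lgals12, out of 22180 genes measured. The family was chosen by the aorta values of Lgals4, whose signal was the clearest to be higher in double-deficient aorta. The aorta difference of every member is therefore given as a description, with no test. Each member was read by 1 probe set, the group of probes that the array assigns to a gene.

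Galectins are proteins that bind galactose-bearing sugars on glycoproteins and glycolipids, both outside the cell and on damaged vesicles inside it. They fall into a prototype form with a single sugar-binding domain (galectin-1), a chimeric form with an added tail that lets molecules cluster (galectin-3), and a tandem form with a pair of linked domains (galectin-4, galectin-8, galectin-9 and galectin-12). In the artery wall and its surrounding fat, galectin-3 is best known as a macrophage product and galectin-12 as an adipocyte protein. Galectin-4 is known mainly from the gut epithelium.

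Expression was measured on arrays in 2 tissues of male mice, all 12 weeks old and kept on a Western type diet, rich in fat and cholesterol, for 4 weeks from the age of 8 weeks. The aorta with its perivascular fat came from 4 mice that lacked the lymphotoxin beta receptor as well as apolipoprotein E (ApoE/LTbR double-deficient) and from 4 littermates that lacked apolipoprotein E alone (ApoE-deficient). Blood cells caught on beads for CD115, the receptor of monocytes for macrophage colony-stimulating factor, gave 3 double-deficient and 3 ApoE-deficient preparations. Replicates 3 and 4 of the ApoE-deficient cells were each a pool from 2 littermates. All animals lacked apolipoprotein E, and the groups differ by label in the receptor. Nothing in the labels ties a blood preparation to an aorta or says that samples of a group were handled separately, so p-values measure the spread between these samples.

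Values are on the log2 scale and were centred for each probe set within a tissue. A value of 0 is thus the median of that tissue's arrays, and neither levels of different genes nor levels of the tissues can be compared. Differences are double-deficient minus ApoE-deficient. In bulk RNA, fewer cells of a type and less RNA per cell cannot be told apart.

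The targeted gene went with the labels. Ltbr lay between -1.29 and -0.49 in double-deficient aortas, against 0.49 to 0.89 in ApoE-deficient aortas, and between -0.62 and -0.07 in double-deficient CD115+ preparations, against 0.07 to 0.55 in ApoE-deficient ones. Its difference was -1.64 (SE 0.17, adjusted p = 0.0679) in aorta and -0.72 (SE 0.18, adjusted p = 0.976) in CD115+ cells (limma). An adjusted p of 0.05 thus missed even the targeted gene in both tissues. The mean of 12 T cell markers ran from -0.99 to -0.22 in double-deficient aortas, against 0.01 to 1.21 in ApoE-deficient aortas. That of 12 B cell markers ran from -0.33 to -0.15 in double-deficient aortas, against -0.22 to 2.19 in ApoE-deficient aortas. The B cell means overlapped, and 0 genes of either list passed an adjusted p of 0.05 (limma). ApoE-deficient aorta replicate 3, at -0.22 for B cells, stood apart from the others of its group, which were at 1.43 to 2.19. In CD115+ cells the B cell mean of the double-deficient preparations was -0.26 to 1.82, against -0.83 to 0.24 in the ApoE-deficient ones. Over all genes, 0.00451% passed an adjusted p of 0.05 in aorta and 0% in CD115+ cells (limma).

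The rounding of the deposited numbers gave a coarse reading of signal in aorta, explained with the processing. By it, Lgals1, Lgals8, Lgals9 and Lgals12 were read as at least 8 on the log2 scale in every usable aorta array. So were 12.8% of all probe sets and 7 of 1107 olfactory receptor probe sets, which serve here as genes not used in this tissue. Lgals3 and Lgals4 were not read as at least 8 in every usable array. A signal below 8 does not show that a gene was off. In the CD115+ arrays the same reading marked 11 of 13 adipocyte markers but not Csf1r, the gene of CD115, so it is a rough guide only.

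The tandem galectin Lgals4 was the member with the widest gap in aorta. It stood at 0.78, 0.70, 0.90 and 0.41 in double-deficient aortas, against -0.54, -0.42, -0.52 and -0.41 in ApoE-deficient aortas. The 4 double-deficient arrays all lay above the 4 ApoE-deficient ones, which fell within a narrow band. The group means were 0.70 ± 0.21 in double-deficient and -0.47 ± 0.07 in ApoE-deficient aorta (SD, n = 4 each). The log2 difference was 1.17 (SE 0.11), a 2.25-fold higher signal in double-deficient aorta. It was between 1.11 and 1.27 when any single array was left out. The double-deficient aorta with the lowest Lgals4 value, replicate 4 at 0.41, was also the one with the highest remaining Ltbr value, at -0.49. Among ApoE-deficient aortas it was the other way, with replicate 4 highest for both Lgals4 (-0.41) and Ltbr (0.89). A relation of the 2 genes was not tested.

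**Figure D1:**
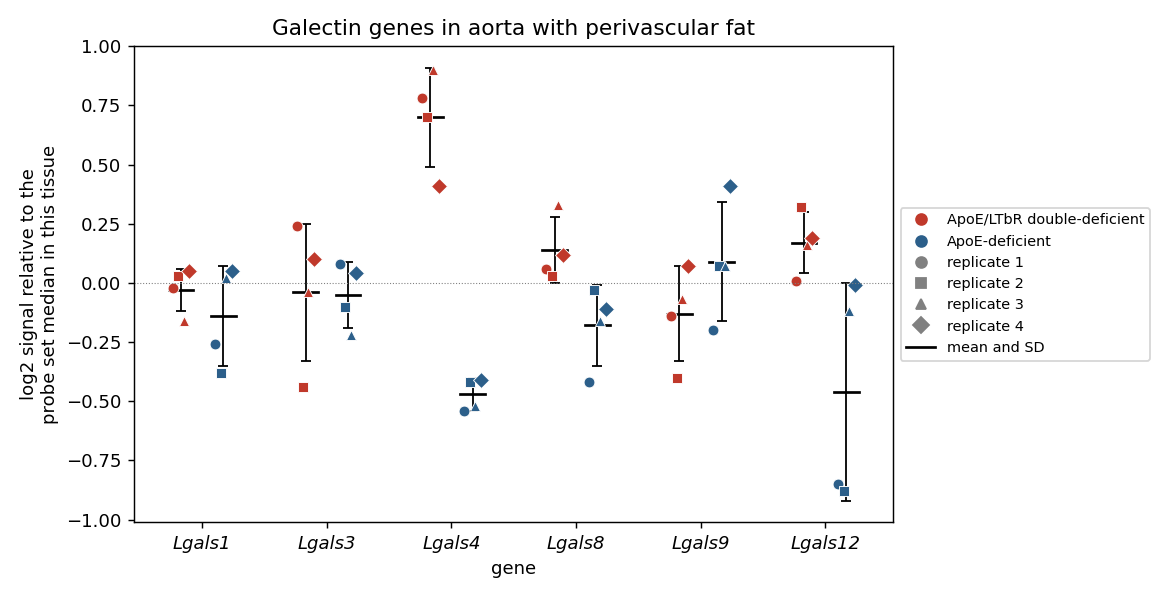
Log2 signal of the 6 galectin genes relative to the probe set median in aorta, by array, with double-deficient aortas (red) left of ApoE-deficient aortas (blue), symbols for replicate numbers, and black bars for mean and SD (n = 4 each). Lgals4 separates the groups with 0.41 to 0.90 in double-deficient against -0.54 to -0.41 in ApoE-deficient aortas, while Lgals3 overlaps.

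Markers of the tissue for which galectin-4 is best known had no common direction in aorta. Of 16 markers of intestinal epithelium, among them the transcription factors Cdx1 and Cdx2, the brush border protein villin (Vil1) and the cadherin Cdh17, 9 had a positive and 7 a negative difference in aorta, with a median of 0.03. In 0 of the 16 did the groups separate, 0 passed at an adjusted p of 0.05 and 0 at an unadjusted p of 0.05 (limma), and 0 were read as at least 8 in every usable aorta array. Over all genes in aorta, 3.91% were higher and 3.81% lower at an unadjusted p of 0.05. The groups separated upward in 2.19% and downward in 2.11%. For 16 genes, counts of 0 by these measures lie near those shares. The mean of the list ran from -0.07 to 0.24 in double-deficient and from -0.03 to 0.23 in ApoE-deficient aortas.

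Lgals4 lies on chromosome 7 beside Lgals7, a galectin of stratified epithelium. Some mouse strains carry Lgals6, a near-identical tandem copy of Lgals4, at this place. Its RNA could bind the same probes, and how far it contributed was not tested. Of the 10 nearest measured genes on the chromosome, 5 on each side, the groups overlapped for all 10. The groups separated in only 2.19% (higher) and 2.11% (lower) of all genes in aorta, so such an overlap is usual. Lgals7 itself differed by -0.02 (SE 0.08, adjusted p = 0.98, limma). The mitochondrial enzyme gene Ech1, next to Lgals4 on the other side, differed by 0.34 (SE 0.14) with an unadjusted p of 0.0383 (limma). Actn4, an actin crosslinker, differed by 0.23 (SE 0.10) with an unadjusted p of 0.0441 (limma). At an unadjusted p of 0.05, 3.91% of all genes were higher in aorta.

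Lgals8 encodes a tandem galectin that marks damaged vesicles and in human cells recruits the autophagy receptor NDP52. In double-deficient aortas it stood at 0.06, 0.03, 0.33 and 0.12, against -0.42, -0.03, -0.16 and -0.11 in ApoE-deficient aortas. The groups did not overlap, although double-deficient replicate 2 and ApoE-deficient replicate 2 came close. Means were 0.14 ± 0.14 in double-deficient and -0.18 ± 0.17 in ApoE-deficient aorta (SD, n = 4 each), and the log2 difference was 0.32 (SE 0.11).

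Lgals12 encodes the galectin of adipocyte lipid droplets. It stood at 0.01, 0.32, 0.16 and 0.19 in double-deficient aortas, against -0.85, -0.88, -0.12 and -0.01 in ApoE-deficient aortas. The groups separated only narrowly, between 0.01 and -0.01, and the low values were those of ApoE-deficient replicates 1 and 2. Means were 0.17 ± 0.13 in double-deficient and -0.46 ± 0.46 in ApoE-deficient aorta (SD, n = 4 each), with a log2 difference of 0.63 (SE 0.22). It was 0.50 without ApoE-deficient replicate 2 and 0.51 without replicate 1. The same 2 arrays had the highest B cell list means, 2.12 and 2.19, and whether the lymphoid content of a sample bears on Lgals12 was not tested.

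Adipocyte markers were measured beside Lgals12. Of 13, 10 had a positive and 3 a negative difference in aorta, with a median of 0.14 and 0 past an adjusted p of 0.05 (limma). At an unadjusted p of 0.05, 2 were higher, against 3.91% of all genes. They were the lipases Lipe at 0.23 (SE 0.07) and Lpl at 0.28 (SE 0.09). The adipokine gene Adipoq differed by -0.01 (SE 0.08). The list mean ran from -0.07 to 0.13 in double-deficient and from -0.29 to 0.04 in ApoE-deficient aortas, and ApoE-deficient replicate 2 had the lowest value of both the list (-0.29) and Lgals12 (-0.88). Taken as deviations from the group means over the 8 aortas, Lgals12 and the list correlated at r = 0.56 and rho = 0.55, and at 0.38 without the 2 arrays farthest from the list's median. These points share arrays, and the correlation is a description.

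Lgals1, the prototype galectin of smooth muscle cells and fibroblasts, overlapped between the groups. It stood at -0.02, 0.03, -0.16 and 0.05 in double-deficient aortas, against -0.26, -0.38, 0.02 and 0.05 in ApoE-deficient aortas. Replicates 1 and 2 of the ApoE-deficient group, which were low for Lgals12, were low here too, and the deviations of Lgals1 and Lgals12 correlated at 0.89 over the 8 aortas. The difference was 0.12 (SE 0.11), and 0.04 without ApoE-deficient replicate 2. Smooth muscle markers had 11 of 12 positive differences, with a median of 0.30. Of the 12, 0 passed an adjusted p of 0.05 and 2 were higher at an unadjusted p of 0.05 (limma), against 3.91% of all genes. Their list means ran from 0.00 to 0.40 in double-deficient and from -0.21 to 0.01 in ApoE-deficient aortas.

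Lgals3, the chimeric galectin also called Mac-2 after its use as a macrophage marker, did not differ beyond its spread. It stood at 0.24, -0.44, -0.04 and 0.10 in double-deficient aortas, against 0.08, -0.10, -0.22 and 0.04 in ApoE-deficient aortas, a difference of 0.01 (SE 0.15). The widest spread lay within the double-deficient group. Lgals3 followed the macrophage markers from array to array, in both genotypes. The mean of 14 macrophage markers was 0.48, -0.18, 0.03 and 0.06 in double-deficient aortas, against 0.14, -0.03, -0.14 and 0.04 in ApoE-deficient aortas. The deviations correlated at r = 0.89 and rho = 0.81 over the 8 aortas, and at 0.78 without the 2 arrays farthest from the list's median. Of the 14 markers 10 had a positive and 4 a negative difference (median 0.06), with 0 past an adjusted or an unadjusted p of 0.05 (limma). Among them Lyve1, of resident vessel-wall macrophages, was at -0.55 (SE 0.25) and Gpnmb, of lipid-laden macrophages, at 0.60 (SE 0.28). Mrc1, at 0.33 (SE 0.15), and Cd163, at 0.31 (SE 0.34), went the other way from Lyve1, and Trem2 was at 0.15 (SE 0.17). A shift between kinds of macrophage was not tested.

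Lgals9, a tandem galectin that binds the T cell receptor TIM-3 and is inducible by interferon, was the 1 member with a negative difference in aorta. It stood at -0.14, -0.40, -0.07 and 0.07 in double-deficient aortas, against -0.20, 0.07, 0.07 and 0.41 in ApoE-deficient aortas. The groups overlapped, and the difference was -0.22 (SE 0.15). It was -0.12 without ApoE-deficient replicate 4 and -0.13 without double-deficient replicate 2.

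Across the 6 genes in aorta, 5 differences were positive and 1 negative, with a median of 0.22, against a median of 0.01 over all genes. In 3 of 6 (Lgals4, Lgals8 and Lgals12) every double-deficient array lay above every ApoE-deficient array, where the background over all genes was 2.19% in this direction and 2.11% in the other. Since the aorta contrast chose the family, these counts support nothing further.

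Marker lists of Schwann cells and nerve, of endothelium and of fibroblasts also leaned to positive differences in aorta, the last with 10 positive and 1 negative. Not every list did. Neutrophil markers had 1 positive and 10 negative differences, platelet markers 2 and 7, mesothelial markers 2 and 6, and patrolling monocyte markers 3 and 6. Of 9 Schwann cell and nerve markers, 8 were positive and 1 negative (median 0.18), with list means of 0.12, 0.48, 0.03 and 0.15 in double-deficient aortas, against -0.31, -0.27, -0.08 and -0.03 in ApoE-deficient aortas. These means did not overlap. None of the 9 passed an adjusted p of 0.05. At an unadjusted p of 0.05 (limma), 3 were higher, against 3.91% of all genes in aorta. They were the cadherin Cdh19 at 1.15 (SE 0.15, adjusted p = 0.179), Prph at 0.75 (SE 0.19) and Ncam1 at 0.80 (SE 0.27). The rest of the list lay between -0.03 and 0.28, with Sox10 at -0.03 (SE 0.12) and Mbp at 0.02 (SE 0.18). All 12 endothelial markers had positive differences (median 0.19), with 0 past an adjusted p of 0.05 and 1 higher at an unadjusted p of 0.05, Eng at 0.39 (SE 0.10). Their list means overlapped, at -0.06 to 0.19 in double-deficient and -0.19 to 0.02 in ApoE-deficient aortas. The part of cell makeup in the galectin differences was not tested.

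In the CD115+ blood cells, which had no part in the choice, the members were tested, and 0 of 6 passed an adjusted p of 0.05 (limma). Lgals9 was the 1 member with an unadjusted p under 0.05, where 2.33% of all genes were lower and 2.06% higher. In 2 of 6, Lgals9 and Lgals1, the double-deficient preparations all lay below the ApoE-deficient ones, against 5.23% of all genes in this direction and 3.93% in the other. The median over the members was -0.07, and over all genes -0.01.

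Lgals9 stood at -0.40, -0.08 and -0.33 in double-deficient preparations, against 0.16, 0.08 and 0.14 in ApoE-deficient replicates 1, 3 and 4. The ApoE-deficient values lay close together, and the double-deficient ones were spread more widely below them. Means were -0.27 ± 0.17 in double-deficient and 0.13 ± 0.05 in ApoE-deficient cells (SD, n = 3 each). The log2 difference was -0.40 (SE 0.09, 95% interval -0.63 to -0.16, adjusted p = 0.976, limma), and over all alternatives its adjusted p ran from 0.181 to 1.

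Interferon response genes were measured beside Lgals9. Of 16, all had a negative difference in CD115+ cells, with a median of -0.45. In 8 of 16 the groups did not overlap, against 5.23% of all genes in this direction. None passed an adjusted p of 0.05, and 8 were lower at an unadjusted p of 0.05 (limma), against 2.33% of all genes. Usp18, a brake on interferon signalling, differed by -0.56 (SE 0.07) and Oas2, an antiviral sensor of double-stranded RNA, by -1.09 (SE 0.27). The list mean was -0.51, -0.18 and -0.21 in double-deficient preparations, against 0.17, 0.11 and 0.18 in ApoE-deficient ones. Deviations of Lgals9 and the list correlated at r = 0.74 and rho = 0.60 over the 6 preparations, but at -0.11 without the 2 farthest from the list's median, so the relation rests on those preparations. In aorta the deviations did not go together (r = -0.29, rho = -0.05, and 0.22 without 2 arrays, n = 8).

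**Figure D2:**
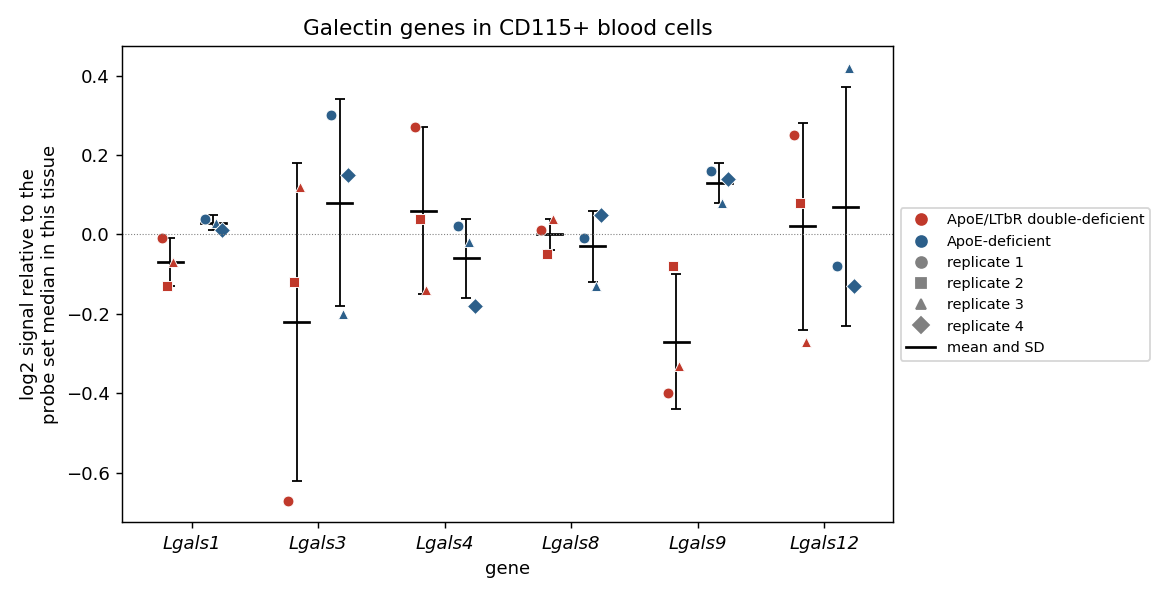
Log2 signal of the 6 galectin genes relative to the probe set median in CD115+ cells, by preparation, with double-deficient cells (red) left of ApoE-deficient cells (blue), symbols for replicate numbers, and black bars for mean and SD (n = 3 each). Lgals9 lies at -0.40 to -0.08 in double-deficient against 0.08 to 0.16 in ApoE-deficient cells, and Lgals3 has 1 low value, -0.67.

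Lgals1 also separated the CD115+ groups, by a small amount. It stood at -0.01, -0.13 and -0.07 in double-deficient preparations, against 0.04, 0.03 and 0.01 in ApoE-deficient ones. The difference was -0.09 (SE 0.05, 95% interval -0.22 to 0.03, adjusted p = 0.976, limma), so a difference larger than 0.22 on the log2 scale lies outside the interval in either direction.

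Lgals3 overlapped between the groups and varied the most. It stood at -0.67, -0.12 and 0.12 in double-deficient preparations, against 0.30, -0.20 and 0.15 in ApoE-deficient ones, a difference of -0.30 (SE 0.23, 95% interval -0.88 to 0.27, adjusted p = 0.976, limma). The low value was that of double-deficient replicate 1, without which the difference was -0.08. That preparation was also the lowest for markers of classical (Ly6C-high) monocytes, whose mean was -0.67, -0.22 and -0.10 in double-deficient preparations, against 0.32, 0.02 and 0.54 in ApoE-deficient ones. All 8 of these markers had a negative difference, with a median of -0.47. Of them 0 passed an adjusted p of 0.05, and 3 were lower at an unadjusted p of 0.05 (limma), against 2.33% of all genes. These 3 were Chil3, Vcan and Ly6c2, at -1.27 (SE 0.44), -0.89 (SE 0.35) and -1.30 (SE 0.51). The deviations of Lgals3 and this list correlated at r = 0.90 and rho = 0.60, but at 0.00 without the 2 preparations farthest from the list's median (n = 6). Against the interferon list, Lgals3 correlated at r = 0.87 and rho = 0.71, and at 0.92 without the 2 preparations farthest from that list's median. The part of cell makeup in the Lgals3 values was not tested.

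Lgals4, which had the wide gap in aorta, overlapped in CD115+ cells. It stood at 0.27, 0.04 and -0.14 in double-deficient preparations, against 0.02, -0.02 and -0.18 in ApoE-deficient ones, a difference of 0.12 (SE 0.12, 95% interval -0.18 to 0.41, adjusted p = 0.976, limma). The aorta difference minus the CD115+ difference was 1.06 (SE 0.17), given without a test because it holds the contrast that chose the gene. Lgals8 differed by 0.03 (SE 0.06, 95% interval -0.13 to 0.18) and Lgals12 by -0.05 (SE 0.19, 95% interval -0.53 to 0.43). For both, values of the groups were interleaved, with Lgals12 at 0.25, 0.08 and -0.27 in double-deficient against -0.08, 0.42 and -0.13 in ApoE-deficient preparations.

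**Figure D3:**
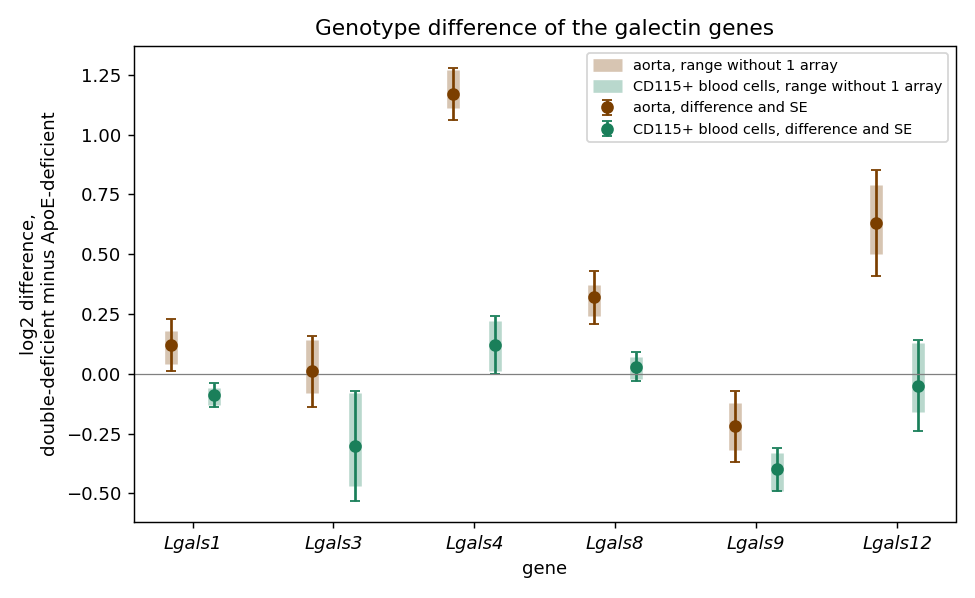
Log2 difference, double-deficient minus ApoE-deficient, of each galectin gene in aorta (brown) and in CD115+ cells (green), with SE as whiskers and, as a pale bar, the range when each array is left out in turn. Lgals4 is at 1.17 in aorta and 0.12 in CD115+ cells, and Lgals9 is below 0 in both, at -0.22 and -0.40.

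Which arrays carried the markers and the galectins together is shown by array in the plot of galectins against gene lists. Lgals3 and the macrophage list lined up over all 8 aortas, while in the CD115+ cells the low corner of both plots was held by double-deficient replicate 1.

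**Figure D4:**
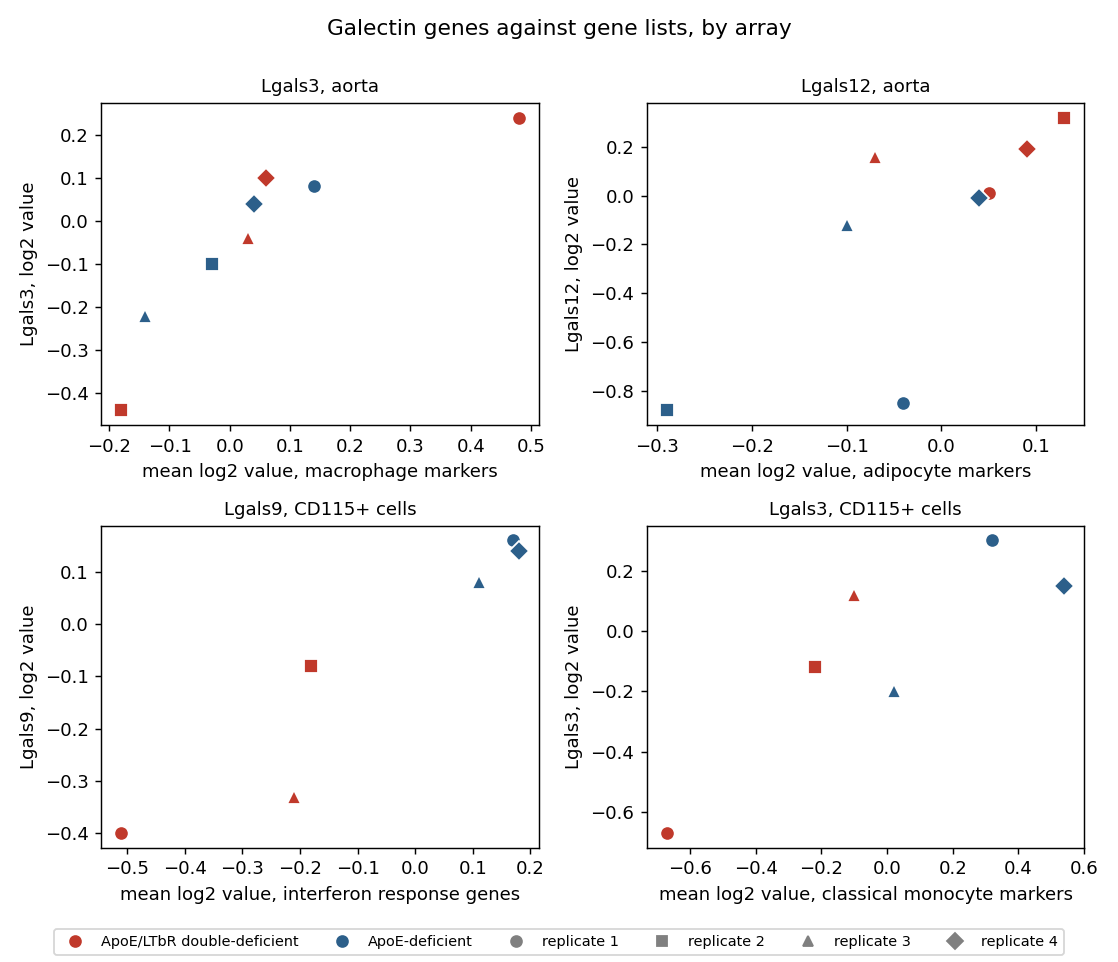
Log2 value of a galectin gene (vertical) against the mean log2 value of a gene list (horizontal) in each array, with double-deficient arrays in red, ApoE-deficient arrays in blue and symbols for replicate numbers. In aorta, Lgals3 runs from -0.44 to 0.24 along the macrophage markers and Lgals12 from -0.88 to 0.32 along the adipocyte markers; in CD115+ cells double-deficient replicate 1 is lowest for Lgals9 (-0.40) and Lgals3 (-0.67).

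Of 5 other galectin and galectin-like genes, 4 were measured. Lgalsl, a galectin-related protein without sugar binding, was the 1 whose groups separated in aorta. It stood at 0.45, 0.03, 0.04 and 0.31 in double-deficient aortas, against -0.20, -0.29, -0.27 and -0.03 in ApoE-deficient aortas, a difference of 0.40 (SE 0.11, adjusted p = 0.468, limma). Lgals2, Lgals7 and the lens protein gene Grifin overlapped between the groups in both tissues, with aorta differences between -0.28 and -0.02 and CD115+ differences between -0.21 and 0.02. In Lgals2 a single ApoE-deficient aorta, replicate 2 at 0.83, was far above the rest.

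Proteins that galectins bind showed no common direction in aorta. Of 21, 10 differences were positive and 11 negative, with a median of 0.00, and 0 passed an adjusted p of 0.05 (limma). At an unadjusted p of 0.05, 2 were higher and 2 lower, against 3.91% and 3.81% of all genes. Higher were the transferrin receptor Tfrc, at 0.86 (SE 0.15, adjusted p = 0.319), and the co-receptor Nrp1, at 0.33 (SE 0.12). Lower were Cd40, at -0.46 (SE 0.14), and the leukocyte phosphatase Ptprc (CD45), at -1.47 (SE 0.53), in aortas where 12 of 12 T cell and 11 of 12 B cell markers had negative differences. The part of cell makeup in the Cd40 and Ptprc values was not tested. In CD115+ cells, 9 were positive and 12 negative (median -0.07), and 0 passed an adjusted p of 0.05. Against 2.33% of all genes, 2 were lower at an unadjusted p of 0.05. These were the secreted galectin-3 binding protein Lgals3bp, at -0.44 (SE 0.13, 95% interval -0.77 to -0.11, adjusted p = 0.976), and P4hb, a protein disulphide isomerase bound by galectin-9, at -0.20 (SE 0.08). Lgals3bp stood at -0.03, -0.42 and -0.19 in double-deficient preparations, against 0.36, 0.30 and 0.03 in ApoE-deficient ones, with no overlap.

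Enzymes that build or cap the sugars galectins bind were also mixed. In aorta, 10 of 16 were positive and 6 negative (median 0.10), with 0 past an adjusted p of 0.05. At an unadjusted p of 0.05 (limma), 2 were higher and 3 lower, against 3.91% and 3.81% of all genes. Higher were Mgat5, which adds the branch that raises galectin binding, at 0.30 (SE 0.12), and the sialyltransferase St3gal1, at 0.36 (SE 0.15). Lower were St6gal1, whose sialic acid cap blocks many galectins, at -0.50 (SE 0.21), Mgat2 at -0.40 (SE 0.16), and the branching enzyme Gcnt1 at -0.82 (SE 0.22, adjusted p = 0.465). B cells also express St6gal1 strongly, and 11 of 12 B cell markers had negative differences in aorta (median -1.71). In CD115+ cells, 7 were positive and 9 negative (median -0.03), with 0 past an adjusted p of 0.05. At an unadjusted p of 0.05, 2 were higher and 0 lower, against 2.06% and 2.33% of all genes. The 2 were Mgat1 at 0.15 (SE 0.06) and Mgat4a at 0.34 (SE 0.12). St6gal1 was at 0.64 (SE 0.26) there, in preparations where the B cell list was at -0.26, 1.82 and 0.98 in double-deficient samples, against 0.24, -0.83 and -0.74 in ApoE-deficient ones. The part of B cells in the St6gal1 differences of either tissue was not tested.

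The genes most like each galectin in aorta were taken by the correlation of deviations from the group means over the 8 arrays. For Lgals4 these were Smim43 (0.972), the endoplasmic reticulum chaperone gene Calr (0.961) and Tbrg1 (0.955), which differed by only 0.10, 0.03 and 0.15 between genotypes. For Lgals3 they were Zkscan7 (0.986), Fam76b (0.977) and Csn1s1 (0.958). For Lgals12 they were Ywhaq (0.984), the tetraspanin Cd151 (0.982) and Nsun4 (0.981). In CD115+ cells, with 6 preparations, the 3 best for each member reached 0.996 to 1.000. With so few arrays, values this high are the top of all genes with a proper name and carry no test.

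RefSeq promoter sequences (GRCm38.p6) were at hand for 4 of the 6 members, Lgals3, Lgals4, Lgals8 and Lgals9. The 250 bases before the start were searched on both strands for motifs, with N for any base, R for A or G and Y for C or T. They were the TATA box TATAAA, the interferon-type repeat GAAANNGAAA and the NF-kB motif GGGRNNYYCC. No member held more than 1 of the 3. They stood in 12.4%, 2.98% and 7.25% of all 32851 promoters of this length. Shown are Lgals4 and Lgals8, whose groups separated in aorta, and Lgals9, whose groups separated in CD115+ cells. Capitals mark the NF-kB match in Lgals8, which lies on the minus strand, chr13:12461739-12461988, and the GAAANNGAAA match in Lgals9, also transcribed from the minus strand, chr11:78984925-78985174. Lgals4 lies on the plus strand, chr7:28833544-28833793, and held none of the 3. Each is written 5′ to 3′ along its gene.
Lgals4: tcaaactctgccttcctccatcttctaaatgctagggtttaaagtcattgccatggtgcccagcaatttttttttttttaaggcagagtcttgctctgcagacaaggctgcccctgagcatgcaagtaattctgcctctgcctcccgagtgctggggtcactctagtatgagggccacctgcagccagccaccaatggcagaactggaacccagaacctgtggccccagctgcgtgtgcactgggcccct
Lgals8: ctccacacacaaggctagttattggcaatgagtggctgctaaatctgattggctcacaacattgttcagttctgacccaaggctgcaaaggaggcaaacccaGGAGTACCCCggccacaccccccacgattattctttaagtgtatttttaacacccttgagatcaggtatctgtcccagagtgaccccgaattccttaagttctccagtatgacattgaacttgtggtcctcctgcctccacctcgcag
Lgals9: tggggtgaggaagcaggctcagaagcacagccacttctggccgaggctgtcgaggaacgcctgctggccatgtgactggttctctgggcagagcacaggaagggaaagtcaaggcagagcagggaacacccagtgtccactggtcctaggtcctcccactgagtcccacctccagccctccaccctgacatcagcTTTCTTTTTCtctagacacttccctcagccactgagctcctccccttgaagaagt

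Read along the gene, the matches in Lgals8 and Lgals9 are the reverse complement of the motif as spelled. The match in Lgals9 begins at position -55 before the start, and the one in Lgals8 at -148. Lgals3 held an NF-kB match at -70. A match is a run of letters, not a shown binding site.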

How the data were processed

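RNA from 8 aortas with perivascular fat and 6 preparations of CD115+ blood cells was amplified and biotinylated, according to protocols in the labels. The authors deposited 1 table with 33793 probe sets and 14 arrays, whose log values are read here as log2. The sources used here do not give log base, probe summary or array normalization. The median of each probe set was 0 over the arrays of either tissue, so values had been centred before deposition. A platform table paired 23521 probe sets with 1 symbol, 1814 with several and 8458 with none. The 22180 genes were means of their probe sets, and 22139 symbols stood in the GRCm38.p6 gene table.

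Double-deficient and ApoE-deficient samples were compared within each tissue over all genes with limma 3.58.1 in R 4.3.3 (lmFit, eBayes), with Benjamini-Hochberg adjustment at 0.05. The difference between tissues used 1 fit of 4 group means. Tests were tested on simulated data. No level filter was possible on centred values. The alternatives were another choice of probe set, quantile and median scaling, robust eBayes, array weights, a pooled fit, a replicate block, high-level probe sets only, and each array left out. Leaving out the pools was added after seeing the data, and it keeps ApoE-deficient replicate 1 as the only CD115+ preparation of its group. No background signal or detection call was at hand, and the number of arrays limits the precision.

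Levels were read from rounding. Numbers held in single precision have a step of 2 to the power -20 from 8 to 16 and of 2 to the power -21 from 4 to 8, and a difference keeps it. Where 5 or more arrays were usable and all values were multiples of the coarser step, within 0.15 of a step, the probe set was read as at least 8 in that tissue.

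The genes named were the 6 members, Ltbr, up to 4 genes of smallest p per list and, per member, the 3 most alike by correlation of deviations from group means. Genes without a proper name, small RNA genes, sensory receptors and pseudogenes were excepted there. Genes beside Lgals4, and a few further list members, such as Adipoq, were chosen after their values were seen. The members and lists were chosen with earlier results of these data known.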

Additional observations from a re-analysis of the deposited data

How the results depend on the processing

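Lgals4 in aorta kept its sign and stayed within its replicate SD under all 15 alternatives, between 1.11 and 1.27. The other aorta differences did so too under theirs, except that Lgals3, at 0.01, changed sign in 6 of 15 and ran from -0.08 to 0.14 with single arrays left out. With single arrays left out Lgals1 ran from 0.04 to 0.18 in aorta (0.04 without ApoE-deficient replicate 2) and Lgals9 from -0.32 to -0.12 (-0.12 without ApoE-deficient replicate 4). In CD115+ cells 0 members passed under any alternative. Lgals9 ran from -0.49 to -0.33, Lgals1 from -0.13 to -0.06 and Lgals4 from 0.01 to 0.22. Lgals3 ran from -0.52 to -0.08, the value nearest 0 being the one without double-deficient replicate 1. The value of -0.52 was the one without the pooled preparations, where ApoE-deficient replicate 1 stood alone for its group. Lgals8 turned to -0.02 without ApoE-deficient replicate 3, over a range of -0.02 to 0.07 with single arrays left out. Lgals12 turned to 0.10 without double-deficient replicate 3, to 0.13 without ApoE-deficient replicate 3 and to 0.10 without the pooled preparations, over -0.16 to 0.13 with single arrays left out. The cause was not tested.

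Counts over all genes moved more. The 1 gene past the threshold in aorta became 0 with the probe set of largest SD, robust eBayes, array weights and high-level probe sets, 19 with 1 fit of all 14 arrays, and 0 to 74 with single arrays left out (74 without ApoE-deficient replicate 3). The difference between tissues had 0 genes past the threshold, and 0 to 58 with single arrays left out (58 without CD115+ double-deficient replicate 1 and 30 without ApoE-deficient aorta replicate 3). Same-numbered samples did not deviate together (correlations of 0.17, -0.15, -0.14 and 0.06 in aorta, and -0.47 and -0.29 in CD115+ cells). With the replicate block Lgals4 stayed at 1.17 in aorta and Lgals9 was at -0.49 over the 2 numbers that both CD115+ groups share, with 1 and 0 genes past the threshold.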

Other observations

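Some markers of tissues other than blood were read as high in the CD115+ arrays by the rounding of the values. Of 13 adipocyte markers 11 were read as at least 8 in every usable array, among them Adipoq and Plin1. Of 12 smooth muscle markers 4 were, among them Acta2 and Myh11, against 9.51% of all probe sets and 17 of 1004 olfactory receptor probe sets. The same reading held for 5 of 8 classical monocyte and 4 of 14 macrophage markers. It did not hold for Csf1r, the gene of CD115, or for Ly6c2. A gene not so read may also have had too few usable arrays, so the reading is coarse. The mean of the adipocyte list was 0.26, -0.31 and -0.25 in double-deficient preparations, against -0.05, 0.12 and 0.09 in ApoE-deficient ones, and all 13 differences were negative, with 0 past an adjusted or an unadjusted p of 0.05 (limma). Lgals12, itself an adipocyte gene, was not read as at least 8 in these arrays. The cause was not tested.

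T and B cell lists went opposite ways in the tissues. In aorta 12 of 12 T cell and 11 of 12 B cell differences were negative, with medians of -1.40 and -1.71, while in CD115+ cells 12 of 12 and 12 of 12 were positive, with medians of 0.37 and 1.45. None passed an adjusted p of 0.05. At an unadjusted p of 0.05, 11 T cell and 10 B cell genes were lower in aorta, and 3 T cell genes and 1 B cell gene were higher in CD115+ cells (limma). Over all genes, 3.81% were lower in aorta and 2.06% higher in CD115+ cells. The difference between tissues was not tested for the lists.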
